A study of Mus musculus with 8 samples.

Results

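The comparison is between the HA signal of histone H3.1 with the K36M change (H3.1K36M) and that of wild-type H3.1 (H3.1WT), along the mouse genome. Its members are 245206 bins of 10 kb out of the 253926 rows in the authors' table. They are the rows exactly 10 kb wide on chromosomes 1 to 19 and X whose mean over the 4 HA libraries was at least 0.5 RPM (the reads of a row scaled to a fixed library total). The weakest bin kept had a mean of 0.501 RPM and the strongest one left out had 0.4995 RPM, with 2387 bins left out in all. To lower counting noise, the bins were also summed on a grid of 100 kb, which gave 21096 windows in which all 10 bins were used. These windows hold 2109.6 Mb, and 34246 bins (13.97%) fell outside a complete window.

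Both cell lines were C3H10T1/2, mesenchymal progenitors derived from C3H mouse embryos, which stably expressed H3.1 with a FLAG-HA tag, either wild type or carrying K36M. No treatment is named, and the labels give no promoter, clone or level of the transgene. Chromatin was precipitated with an HA antibody, which targets nucleosomes with the tagged copy and not the untagged H3 of the cells. How much of the reads is background was not tested, because input libraries were not used here. H3.3WT and H3.3K36M lines of the same make, again with 1 HA library each, serve below as a second pair that shares no library with the first.

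Histone H3.1 is incorporated mainly behind the replication fork, with the chaperone CAF-1, and therefore covers most of the genome. H3.3 is also placed outside replication, by HIRA at active genes and by ATRX and DAXX at repeats and telomeres. A methionine at lysine 36 blocks methylation of that residue on the mutant tail and inhibits enzymes such as NSD2 and SETD2, so that H3K36 methylation falls on the other histones too. K36M, mostly in H3.3, is the recurrent histone change of chondroblastoma, a tumour of cartilage precursors, and mesenchymal progenitors serve as a model of its cell of origin.

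Each group is 1 library, so no difference between the lines has a replicate check and none was tested. Intervals below are exact 95% intervals on the recovered reads and cover counting error only, and for regions ranked by their ratio they do not allow for the ranking. Reads recovered over all rows summed to 35487141 in H3.1WT and 41705735 in H3.1K36M. Summed RPM was 0.43% and 0.51% above the fixed total, so these sums are not exact library sizes. Medians were 129 and 151 reads per 10 kb bin and 1286 and 1504 reads per 100 kb window. For the H3.3 ChIP samples the title starts with the name of an H3.1 line, and the genotype label was used instead, while a protocol text names Cbx2 where the sample descriptions name HA. The K36M change itself cannot be read from binned signal. Over 100 kb windows, log2 RPM of the H3.1 libraries had r of 0.911 with each other and between 0.550 and 0.619 with an H3.3 library, as a description over windows that are not replicates. Input libraries were not used here.

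H3.1K36M and H3.1WT had nearly the same profile at every scale examined. The median window held 3.64 RPM per 10 kb in H3.1WT against 3.62 RPM in H3.1K36M. Between the 5th and the 95th percentile of windows, H3.1WT ran from 2.57 to 5.72 RPM and H3.1K36M from 2.61 to 5.69 RPM. The ratio of these percentiles was thus 2.23 and 2.18, against 6.44 in H3.3WT and 4.44 in H3.3K36M. Of the 21096 windows, 70.8% differed by no more than 1.1-fold between the H3.1 lines and 92.6% by no more than 1.2-fold.

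The small differences that remained were shared by neighbouring bins, so that summing reads removed the counting noise but little of the difference. In 10 kb bins the SD of the log2 ratio of H3.1K36M over H3.1WT was 0.24, of which the formula for counting error gives 0.18, or 59.3% of the variance. In 100 kb windows the SD was 0.15 and counting error 0.06, or 13.6% of the variance, and in windows of 1000 kb it was 0.11 and 0.02. Subtracting the counting part leaves 0.15 at 10 kb, 0.14 at 100 kb and 0.11 at 1000 kb. The same remainder for H3.3K36M over H3.3WT was 0.45, 0.42 and 0.32. At each of the 7 sizes from 10 to 1000 kb the H3.1 pair therefore varied about as little beyond counting error as at the others, and less than the H3.3 pair.

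**Figure D1:**
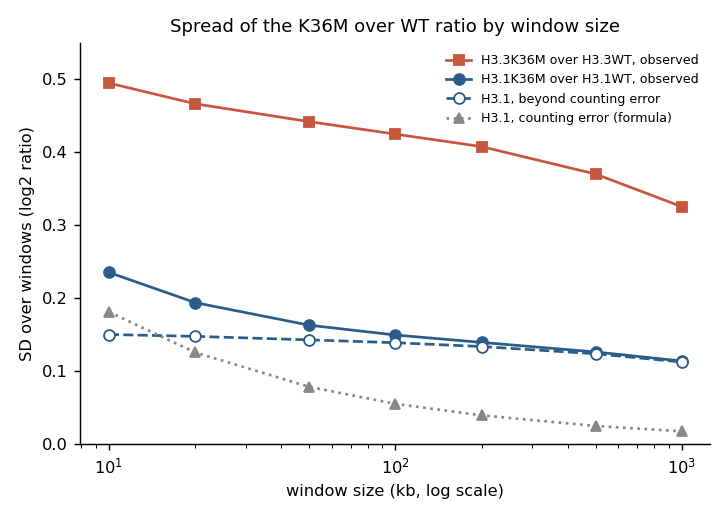
SD over windows of the log2 ratio of K36M over WT (vertical axis) against window size in kb (log scale). Blue circles are the H3.1 pair as observed, open circles the same after subtracting counting error, grey triangles the counting error by formula and red squares the H3.3 pair as observed. Counting error falls from 0.18 to 0.02 while the H3.1 remainder falls only from 0.15 to 0.11.

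Ratios of windows 100 kb apart had r of 0.731, and this fell to 0.404 at 500 kb, 0.291 at 1000 kb and 0.183 at 5000 kb. After the median of each chromosome was subtracted, r was 0.709 at 100 kb and 0.114 at 5000 kb. Without that subtraction, the H3.3 pair started higher than the H3.1 pair, at 0.813, and ended lower, at 0.0644. Odd- and even-numbered bins of the same window, which are separate counts of the same libraries, had ratios with r of 0.756. These are correlations over windows of 1 library a side, which share depth and base composition.

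A fold of 1.5 was used to name windows that stood apart, without any test. By this rule 78 windows (0.37% of those examined) were lower in H3.1K36M and 5 (0.0237%) were higher. With a pseudocount of 1 RPM in place of 0.1 RPM, 45 windows were lower and 0 higher. With windows made only of bins at or above the median of the H3.1 libraries, 33 were lower and 0 higher. That setting examined fewer windows and left out those poor in H3.1, so its counts cannot be set against the 78 and 5. The 78 lower windows merged into 41 regions on 17 of the 20 chromosomes. They were rich in H3.1 in the WT line and ordinary in the mutant line, with medians of 5.98 RPM in H3.1WT against 3.64 RPM in H3.1K36M, beside 3.64 and 3.62 RPM over all windows. The 5 higher windows were poor in H3.1 in the WT line, with 2.18 RPM, and closer to the genome's median in the mutant line, with 3.41 RPM. Choosing windows by their ratio favours high WT values on the lower side and low ones on the higher side, so these levels are a description. Windows chosen on their even-numbered bins alone gave 78 lower windows, and the odd-numbered bins of all 78 were lower too, with a median log2 ratio of -0.71. Chosen on odd-numbered bins, 81 windows were lower and the even-numbered bins were lower in all 81, with a median of -0.70. On the higher side the choice gave 12 and 11 windows, and in the bins not used for it all 12 and all 11 were higher, with medians of 0.49 and 0.51. The other bins reached 1.5-fold in 57 of the 78 and 57 of the 81 lower windows, but in only 5 of the 12 and 5 of the 11 higher ones. Odd and even bins alternate within the same windows of the same libraries, so their agreement bears on counting noise alone and not on a difference between the lines.

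**Figure D2:**
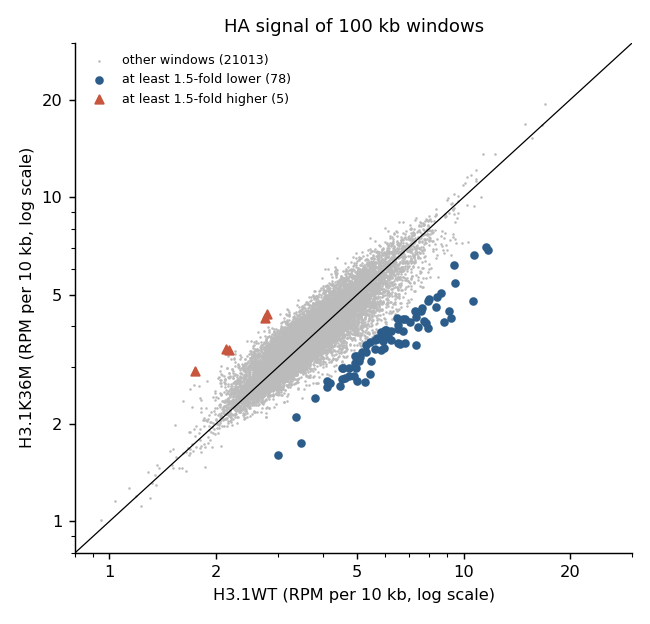
HA signal of 100 kb windows in H3.1K36M (vertical axis) against H3.1WT (horizontal axis), both in RPM per 10 kb on log scales, with the line of equal signal. Blue dots are the 78 windows at least 1.5-fold lower, red triangles the 5 at least 1.5-fold higher and grey dots all others, and 8 windows lie outside the axes. Most blue dots sit right of the main cloud at H3.1K36M levels close to its middle.

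On chromosome 11, chr11:111400001-111800000 held 8.95 RPM per 10 kb in H3.1WT against 4.69 RPM in H3.1K36M, a 1.91-fold lower signal (1.86 to 1.964). All 40 of its bins were lower in the mutant, which ranged from 3.37 to 5.62 RPM while H3.1WT ranged from 6.48 to 13.8 RPM. The region was chosen by the ratio of these same bins, so their shared direction and lack of overlap are only a description. The same holds for the counts of lower or higher bins in the other regions named below. The 500 kb on each side held 5.12 RPM in H3.1WT against 4.43 RPM in H3.1K36M. The WT line thus had a local rise of H3.1 that was nearly level with its surroundings in the mutant line. H3.3 was lower in the same place, with 11.02 RPM in H3.3WT against 5.81 RPM in H3.3K36M.

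Of the same kind was chr16:86200001-86500000, with 7.31 RPM of wild-type H3.1 and 3.93 RPM of the mutant, and for H3.3 with 11.6 and 8.30 RPM. The H3.1 signal was 1.86-fold lower (1.79 to 1.93) over 300 kb, and all 30 bins were lower. Its flanks were also lower in H3.1K36M, with 3.63 RPM against 4.895 RPM. At chr2:24000001-24500000, the longest of the 10 regions with the lowest ratio, all 50 bins were lower, with 7.89 RPM in H3.1WT against 4.45 RPM in H3.1K36M (1.77-fold lower, 1.73 to 1.82). Its flanks barely differed, with 4.45 and 4.24 RPM. H3.3WT held 7.42 RPM there and H3.3K36M 4.28 RPM.

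At 3 shorter regions among these 10 both variants were again lower in K36M. At chr8:38000001-38200000 the H3.1 signal went from 6.78 RPM in the WT line to 3.71 RPM in the mutant line (1.83-fold lower, 1.75 to 1.92), and at chr4:80600001-80800000 from 6.23 to 3.49 RPM (1.79-fold lower, 1.71 to 1.87). At chr7:58900001-59100000 it went from 5.45 to 2.99 RPM (1.82-fold lower, 1.73 to 1.92). All 20 bins of each of these 3 regions were lower in H3.1K36M. H3.3 was lower in K36M in all 3 as well, by the most at chr4:80600001-80800000, with 10.01 RPM in H3.3WT against 4.35 RPM in H3.3K36M.

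Chromosomes 15 and X held the longest stretches of reduced H3.1. On the first, chr15:43000001-43800000 was made of 8 touching windows at least 0.3 below the median log2 ratio, a looser rule met by 529 windows (2.51%) on the lower side and 524 (2.48%) on the higher side. Mean signal over its 800 kb was 6.14 RPM in H3.1WT against 3.81 RPM in H3.1K36M (1.61-fold lower, 1.58 to 1.65), with all 80 bins lower in the mutant. H3.3WT held 9.36 RPM and H3.3K36M 5.09 RPM. In the window just before it, chr15:42900001-43000000, H3.1 was at 2.91 RPM in the WT line against 3.85 RPM in the mutant line. All 10 bins of that window were higher in the mutant. This turn was short. In the 50 kb centred 625 kb before the centre of the stretch, H3.1K36M was lower again, at 2.72 RPM against 4.38 RPM in H3.1WT. H3.3 did not turn in that window, with 14.7 RPM in H3.3WT against 6.74 RPM in H3.3K36M.

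The region chrX:165400001-166200000, near the distal end of its chromosome, was as long. It held 5.92 RPM in H3.1WT against 3.74 RPM in H3.1K36M (1.58-fold lower, 1.55 to 1.62), and 79 of its 80 bins were lower. Its flanks went the other way, with 5.98 RPM in H3.1WT against 6.88 RPM in H3.1K36M. The next longest lower runs were chr7:96600001-97300000, with 4.82 and 3.26 RPM, chr15:53800001-54500000, with 5.23 and 3.80 RPM, and chr11:111200001-111800000, which contains the chromosome 11 region above. Runs of at least 300 kb numbered 61 on the lower side and 44 on the higher side.

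H3.1K36M exceeded H3.1WT most in regions where H3.1WT was below its median over the genome. The highest ratio was at chr4:139600001-139800000, with 1.94 RPM in H3.1WT against 3.16 RPM in H3.1K36M, a 1.63-fold higher signal (1.53 to 1.74). All 20 bins were higher in the mutant, and their lowest value of 2.60 RPM lay above the highest of 2.41 RPM in H3.1WT. These bins gave the region its rank, and they come from 1 library a side, so this is a description. H3.3WT was at only 0.841 RPM and H3.3K36M at 2.63 RPM. Signals in both mutant lines were therefore above those of their WT lines here.

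The other 3 regions past 1.5-fold were chr7:50700001-50800000, at 1.57-fold (1.45 to 1.70), chr5:118200001-118300000, at 1.55-fold (1.42 to 1.69), and chr3:91900001-92000000, at 1.54-fold (1.42 to 1.66). In each of them all 10 bins were higher in H3.1K36M and H3.3K36M exceeded H3.3WT, by 2.03-fold, 2.10-fold and 1.78-fold. Their flanks were also higher in H3.1K36M than in H3.1WT, by 1.18-fold, 1.19-fold and 1.16-fold, so these windows were the tops of broader rises.

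Of the 5 longest higher runs, 3 lay on the distal part of chromosome 4. Over chr4:153200001-154200000 the signal was 2.30 RPM in H3.1WT against 3.22 RPM in H3.1K36M (1.40-fold higher, 1.36 to 1.44), and 97 of 100 bins were higher. Over chr4:139300001-140100000 it was 2.21 and 3.11 RPM, and over chr4:150500001-151200000 it was 2.29 and 3.11 RPM, with all 80 and all 70 bins higher. All 3 were poor in H3.3, with between 1.31 and 1.45 RPM in H3.3WT and between 2.32 and 2.68 RPM in H3.3K36M. The longest run of all, chr11:113700001-114800000, covered 1100 kb with 3.51 RPM in H3.1WT against 4.64 RPM in H3.1K36M (1.32-fold higher, 1.29 to 1.35), and all 110 bins were higher. It lay distal to the chromosome 11 region in which H3.1K36M was lower, on the same chromosome. The remaining run was chr5:117900001-118600000, with 2.44 and 3.35 RPM, around the chromosome 5 window named above.

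**Figure D3:**
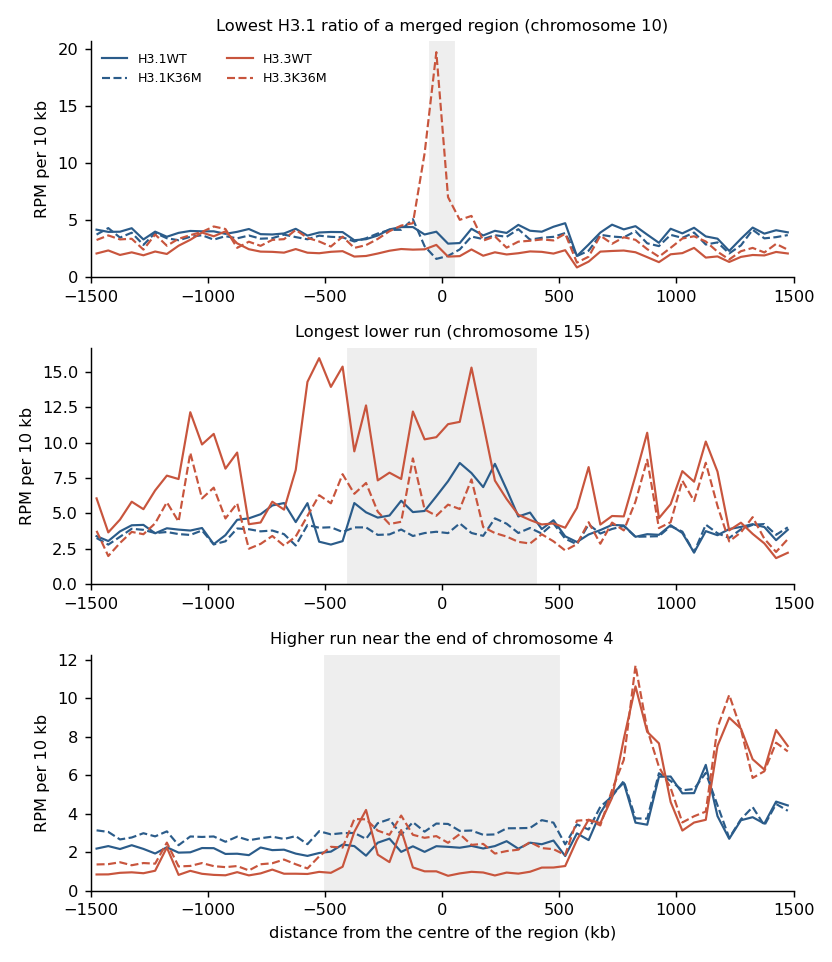
HA signal in RPM per 10 kb (vertical axis, means of 50 kb) against the distance in kb from the centre of 3 regions, which are shaded. Blue lines are H3.1 and red lines H3.3, solid for WT and dashed for K36M. In the top panel H3.1K36M dips where H3.3K36M rises to a peak. Within the shaded part of the middle panel both mutants lie below their WT lines. Within the shaded part of the bottom panel H3.1K36M lies above H3.1WT, as H3.3K36M does above H3.3WT over most of it.

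Where H3.1 was lower in H3.1K36M, H3.3 was usually lower in the separate H3.3K36M line. Of the 78 windows at least 1.5-fold lower in H3.1K36M, 73 (93.6%) had less HA signal in H3.3K36M than in H3.3WT, beside 40.3% of all windows and 59.4% of the tenth of windows richest in H3.3. These 78 windows form 41 merged regions, so touching windows are not separate cases and long regions weigh more in these shares. In 48 of the 78 (61.5%) H3.3 was at least 1.5-fold lower as well, while 6.22% of all windows met that rule for H3.3. The same 48 windows are 3.66% of the 1313 that were 1.5-fold lower in H3.3K36M, so most windows lower in H3.3K36M were not lower in H3.1K36M by that size. Median levels in the 78 windows were 8.08 RPM in H3.3WT against 4.73 RPM in H3.3K36M. By the looser rule, 448 of 529 lower windows (84.7%) were lower in H3.3K36M and 374 of 524 higher windows (71.4%) were higher, against 59.7% of all. Over all windows the ratios of both pairs had r of 0.154. Within chromosomes r lay between -0.00984 on chromosome 17 and 0.365 on chromosome 4.

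A few windows went in opposite directions in both pairs. These were picked after their values were seen, as windows at least 0.3 from the median in H3.1 and at least 1.5-fold apart in H3.3, the latter met on the higher side by 10.9% of windows. H3.1 was lower and H3.3 higher in 8 windows, which are 1.51% of the 529 lower ones and so below that share. H3.1 was higher and H3.3 lower in 29, which are 5.53% of the 524 higher ones, near the 6.22% of all windows that were 1.5-fold lower in H3.3, so that count does not stand apart. The most marked was chr10:103000001-103100000, which also had the lowest H3.1 ratio of the 41 merged regions. H3.1WT held 3.47 RPM and H3.1K36M 1.74 RPM there (1.99-fold lower, 1.82 to 2.19), whereas H3.3WT held 2.32 RPM and H3.3K36M 13.4 RPM, 5.76-fold higher (5.40 to 6.16). All 10 bins were lower in H3.1K36M, and the flanks of 500 kb were at 3.97 RPM in H3.1WT against 3.58 RPM in H3.1K36M. The dip was measured in the H3.1K36M line and the H3.3 peak in the separate H3.3K36M line.

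The same arrangement was seen at chr3:45000001-45100000, with 2.99 RPM in H3.1WT against 1.61 RPM in H3.1K36M (1.86-fold lower, 1.69 to 2.06) and with H3.3 at 2.95 RPM in the H3.3WT line and 10.3 RPM in the H3.3K36M line. At chr4:23200001-23400000 H3.1 went from 4.11 to 3.11 RPM while H3.3 went from 2.10 to 8.09 RPM. At chr14:95600001-95700000 H3.1 went from 3.36 to 2.68 RPM while H3.3 went from 1.77 to 8.23 RPM. In the 8 windows where H3.3K36M was at least 3-fold higher than H3.3WT, H3.1 was lower in H3.1K36M in 7, with a median log2 ratio of -0.26, beside 51.9% of all windows. These 8 include chr10:103000001-103100000, chr3:45000001-45100000 and chr14:95600001-95700000, which were picked for a lower H3.1 ratio. The count is therefore not separate from that choice. Of the 4 windows at least 3-fold lower in H3.3K36M, 1 was lower in H3.1K36M, with a median of 0.19 for H3.1. The wider group of 201 windows (0.953% of all) at least 2-fold higher in H3.3K36M had 82 (40.8%) lower in H3.1K36M and a median of 0.04 for H3.1, so the lower H3.1 median was not shared by that larger group. The 208 windows (0.986%) at least 2-fold lower in H3.3K36M had a median of -0.08 for H3.1.

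The 29 windows of the reverse arrangement are shown by the pair of regions with the lowest H3.3 ratio. At chr15:40600001-40800000 H3.3 went from 9.61 to 3.16 RPM while H3.1WT held 2.51 RPM and H3.1K36M 3.13 RPM (1.245-fold higher, 1.17 to 1.32). At chr9:116800001-117000000 H3.3 went from 4.70 to 1.78 RPM and H3.1 from 2.52 to 3.34 RPM (1.32-fold higher, 1.247 to 1.41). All 20 bins of both regions were higher in H3.1K36M.

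Chromosomes differed by little in the H3.1 ratio. Chromosome medians had an SD of 0.04 over the 20 chromosomes, beside 0.12 for the H3.3 pair, and differences between chromosomes made up 7.98% of the variance over windows. Chromosome 9 was highest, with a median log2 ratio of 0.11, a median of 3.37 RPM in H3.1WT against 3.67 RPM in H3.1K36M, and 83.3% of its windows higher in the mutant line. Chromosome 18 was lowest with -0.08, followed by chromosome X with -0.06, and 23.1% and 22.9% of their windows were higher. No window of chromosome 9 was 1.5-fold lower, which also held for chromosomes 13 and 17, beside 0.37% of all windows. The H3.3 pair had medians of -0.04 on chromosome 9, 0.35 on chromosome 18 and 0.18 on chromosome X, so the order of chromosomes was not the same in both pairs.

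Chromosome 4 combined the widest spread with a low median. Its SD over windows was 0.18 and its median -0.04. Of its 1233 windows, 48 (3.89%) were at least 0.3 below the median of all windows and 71 (5.76%) at least 0.3 above it, beside 2.51% and 2.48% of all windows. Chromosome 15 was alike in spread, with an SD of 0.18, and of its 887 windows 36 (4.06%) were lower and 53 (5.98%) higher. Of the 1019 windows of chromosome 9, 6 (0.589%) were lower and 68 (6.67%) higher. Chromosomes X and 18 had no higher window among 1247 and 736, and their 18 (1.44%) and 20 (2.72%) lower windows were below and near the share over all windows. The 5th and 95th percentiles were -0.27 and 0.32 on chromosome 4 and -0.22 and 0.08 on chromosome X.

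**Figure D4:**
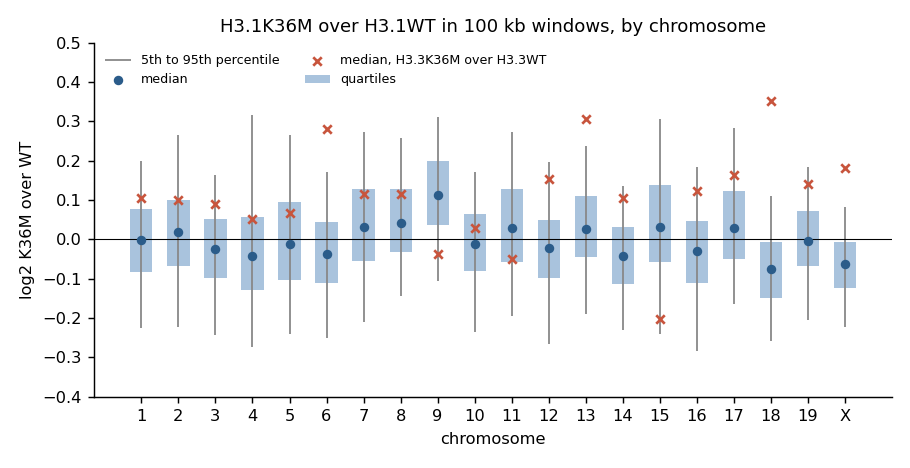
Log2 ratio of H3.1K36M over H3.1WT in 100 kb windows (vertical axis) for each chromosome (horizontal axis). Dots are medians, boxes the quartiles, lines the 5th to 95th percentile, and crosses the median of H3.3K36M over H3.3WT in the same windows. Medians of the H3.1 pair stay between -0.08 and 0.11, while those of the H3.3 pair reach 0.35 on chromosome 18.

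Toward distal chromosome ends the ratio was slightly raised. Distances were taken from the last row of each chromosome. Windows 5 to 10 Mb from that end had a median log2 ratio of 0.06 (SD 0.09 over 20 chromosomes), and in 18 of the 20 chromosomes this was above the chromosome's own median. It was 0.05 (SD 0.13) between 1 and 5 Mb, and -0.02 (SD 0.05) more than 50 Mb away. The last 1 Mb had -0.02 (SD 0.18) over 163 windows. The 4 of these that were 1.5-fold lower (2.45%, beside 0.37% of all windows) were all in 1 region of 1 chromosome, chrX:165700001-166100000. At the centromere-proximal side, where each chromosome's first row is an empty one of 2.99 or 3 Mb, the first 1 Mb after 3 Mb had a median of 0.01 (SD 0.07). All these shifts are smaller than the SD of 0.15 over single windows.

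In blocks of 5 Mb with at least 25 windows, 496 in number, the SD of block medians was 0.08. Blocks with a median of at least 0.2 numbered 11, and no block was at -0.2 or below. Highest was chr4:150000001-155000000, with 0.35, where 43 of 45 windows were higher in the mutant line and the medians were 2.45 RPM in H3.1WT against 3.26 RPM in H3.1K36M. Next came chr15:85000001-90000000 with 0.26 and chr2:175000001-180000000 with 0.26. The lowest were chr4:80000001-85000000 with -0.16, chr3:45000001-50000000 with -0.15 and chr4:55000001-60000000 with -0.15. Chromosome 4 thus held both extremes.

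The spread of the H3.1 ratio widened with the H3.3 signal of the window, although the median hardly moved. Windows were divided into 10 equal classes by the mean log2 RPM of H3.3WT and H3.3K36M, libraries that do not enter the H3.1 ratio. The median log2 ratio was 0.03 in the poorest class (SD 0.09 over chromosomes), -0.03 in class 4 (SD 0.05) and -0.004 in the richest (SD 0.05). The SD over windows was 0.13 in the poorest class, 0.11 in class 3 and 0.19 in the richest, although counting error fell from 0.063 to 0.048 between the poorest and the richest class. No window of classes 1 to 4 was 1.5-fold lower, whereas classes 8, 9 and 10 held 16, 20 and 29 of the 78. The 5 higher windows were in classes 1, 2, 6 and 7. Classes by the mean of both H3.1 libraries gave medians between -0.02 and 0.01, and the SD rose from 0.13 in class 5 to 0.20 in class 10.

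**Figure D5:**
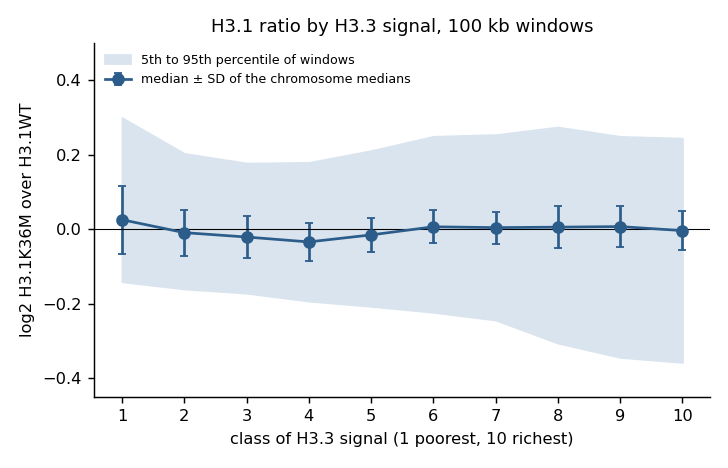
Log2 ratio of H3.1K36M over H3.1WT in 100 kb windows (vertical axis) by class of H3.3 signal (horizontal axis, 10 equal classes). Dots are class medians with bars for the SD of the 20 chromosome medians, and the band spans the 5th to 95th percentile of windows. The medians stay between -0.03 and 0.03 while the band widens downward from -0.14 in class 1 to -0.36 in class 10.

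In single 10 kb bins a 2-fold rule named 157 bins lower in H3.1K36M (0.064%) and 30 higher (0.0122%). With a pseudocount of 1 RPM the counts were 39 and 0. The higher count was 51 with a pseudocount of 0.01 RPM, 95 without a filter on low bins and 2 among the fewer bins at or above the median of the H3.1 libraries. Of the 157 lower bins, 114 lay inside the windows that were 1.5-fold lower, while 1 of the 30 higher bins lay inside a higher window. The windows are sums of such bins and numbered 78 lower against 5 higher, so these overlaps follow in part from the rules. In H3.1WT the lower bins had a median of 246 reads and the higher bins 47.5 reads, a contrast that choosing by the ratio favours. In H3.1K36M their medians were closer, at 3.25 RPM and 2.81 RPM. The 5 highest bins rested on few reads and had wide intervals. The first, chrX:72990001-73000000, held 0.283 RPM in H3.1WT against 1.16 RPM in H3.1K36M (4.09-fold, 2.04 to 9.06), and each of the other 4 held less than 1 RPM in H3.1WT. Next to lowest was a run of 2 bins, chr4:113100001-113120000, which held 2.28 RPM in H3.1WT against 0.771 RPM in H3.1K36M (2.95-fold lower, 2.20 to 4.01), with 1.78 RPM in H3.3WT. The lowest of all, chr5:130300001-130310000, rested on 0.368 and 0.1205 RPM, with 5 reads in H3.1K36M.

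The authors' list of 73 H3.1K36M peaks marked places where H3.1 was high in both lines. The list is named for the mutant line, whose library enters the ratio, so their levels are given as a description. Peaks were short, from 1 to 23.2 kb with a median of 1.6 kb, and 71 of them overlapped a bin used here. In the 83 bins concerned the medians were 10.1 RPM (WT) and 10.7 RPM (K36M) for H3.1, and 9.55 and 9.997 RPM for H3.3. The log2 ratio of H3.1K36M over H3.1WT had a median of 0.07 and ranged from -0.28 to 0.46, and no peak bin was 2-fold higher or lower. In H3.1K36M 82 of the 83 bins were above the library's 95th percentile of 5.95 RPM, and in H3.1WT 80 were above that library's 6.03 RPM.

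The longest peak, chr8:87324601-87347800, had 12.7 RPM in H3.1WT against 14.4 RPM in H3.1K36M over its bins (1.13-fold higher, 1.05 to 1.21). Next in length were chr15:101786001-101799200, with 16.3 and 16.2 RPM, chr1:33942401-33955000, with 15.5 and 15.1 RPM, and chr10:80900401-80913000, with 15.1 and 14.8 RPM. The intervals of all 3 include equality, from 0.920-fold to 1.08-fold, from 0.896-fold to 1.06-fold and from 0.904-fold to 1.07-fold in that order. By signal in H3.1K36M, the first 4 peaks, of which 2 share a bin, all belonged to the chromosome 1 group that starts at chr1:33879001. The strongest, chr1:33903401-33909400, had 18.4 RPM in H3.1WT against 18.8 RPM in H3.1K36M. The fifth, chr17:6261401-6263800, was the one among these with a difference beyond counting error, at 12.5 and 16.7 RPM (1.33-fold higher, 1.18 to 1.504). H3.3 was higher in K36M there too, with 11.5 RPM in H3.3WT against 16.8 RPM in H3.3K36M.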

How the data were processed

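HA ChIP-seq was measured in 4 cell lines with 1 library each, and input libraries of 5% lysate were not used here. Reads were aligned to mm9 with Bowtie 1.0.0, per the submitters' processing notes. The deposited table gives RPM per row as the authors computed it. The counting of reads in rows and the peak caller are not given in the sources used here. Peaks were used as the authors deposited them, and the deposited peak files served for positions only.

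RPM values of each library were whole multiples of 1 step within 0.01 read for 100% of values, and reads were recovered by dividing by it. Ratios are log2(RPM + 0.1), which understates differences of low bins, and 100 kb values are means of 10 bins. Fold changes and exact Clopper-Pearson intervals of 95% use the recovered reads without a pseudocount. Reads carry no molecular identifiers and are not independent molecules. With 1 library a group no test was made, and bins past 2-fold or windows past 1.5-fold were called by size. Regions were named by rank: merged windows past 1.5-fold with the largest ratio, the 5 longest runs past 0.3 in each direction and the 5 single-bin runs with the largest ratio. Windows apart in opposite directions were picked after their values were seen. Members, rules and lists were chosen with earlier results of these data known. No mm9 annotation was used here, so regions carry no gene names. Calculations used numpy 2.4.6 and scipy 1.17.1 under Python 3.11.15, with tables in pandas 2.3.3 and plots in matplotlib 3.10.9, and were tested on simulated data. Alternatives were the pseudocount, the filter on low bins, scaling by chromosome, trimming, other classes and odd or even bins.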

Additional observations from a re-analysis of the deposited data

Results flagged for a closer look

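Some regions had opposite signs of the K36M over WT ratio in the H3.1 and H3.3 pairs, a difference that was not tested because each group is 1 library. They were picked after their values were seen. Below the WT line in H3.1 and above it in H3.3 were chr10:103000001-103100000 (log2 ratio -0.99 for H3.1 and 2.53 for H3.3), chr3:45000001-45100000 (-0.90 and 1.81), chr14:95600001-95700000 (-0.32 and 2.22), chr4:23200001-23400000 (-0.40 and 1.95), chr3:47800001-47900000 (-0.34 and 0.80) and chr4:52200001-52300000 (-0.34 and 0.72). Above it in H3.1 and below it in H3.3 were chr15:40600001-40800000 (0.32 and -1.60), chr9:116800001-117000000 (0.40 and -1.40), chr12:100500001-100600000 (0.33 and -1.28), chr17:67400001-67500000 (0.31 and -1.24), chr15:42900001-43000000 (0.40 and -1.12) and chr10:58300001-58400000 (0.39 and -1.12).

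Chromosomes 9 and 18, the extremes of the H3.1 pair, also had opposite signs in the 2 pairs. The median log2 ratio was 0.11 for H3.1 and -0.04 for H3.3 on chromosome 9, and -0.0761 for H3.1 and 0.35 for H3.3 on chromosome 18, and this difference was not tested.

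Signal was also present outside the bins compared. Chromosome Y held 29.3 RPM in H3.1WT against 28.5 RPM in H3.1K36M, summed over 212 rows (0.974-fold, 0.895 to 1.06). The 4029 rows wider than 10 kb on the other chromosomes summed to 26985 RPM in H3.1WT against 26689 RPM in H3.1K36M (0.989-fold, 0.986 to 0.992).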

How the results depend on the processing

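No paired analysis was possible because each group is 1 library with no replicate number, and for the same reason no library could be left out. Of 53 values for counts and medians under an alternative, 29 kept their direction and size, 23 moved and 1 reversed. A pseudocount of 0.01 RPM gave 51 bins 2-fold higher, 9 windows 1.5-fold higher and a spread of 0.153 over windows. A pseudocount of 1 RPM gave 0 higher and 39 lower bins, 0 higher and 45 lower windows and a spread of 0.1218, and the 4 higher regions named were then at 0.50, 0.51, 0.46 and 0.48. Without a filter 95 bins were higher. With bins at or above the median of the H3.1 libraries, 2 bins were higher and 0 windows higher and 33 lower. Subtracting chromosome medians gave 9 higher windows, and even or odd bins, chosen after seeing the data, gave 12 and 11. Leaving out the top and bottom 1% of windows gave a spread of 0.1313. Summed RPM gave 0.1253 on chromosome 9 and -0.08637 on chromosome 18. Classes by H3.3WT alone gave 0.03955 in the poorest and -0.01893 in the richest class, and classes by H3.3K36M alone 0.006356 and 0.005116, the last with the opposite sign. In 10 kb bins the first 1 Mb gave 0.02119 and 5 to 10 Mb from the distal end 0.06529. Where no value shows it, the cause was not tested. Counts on both sides therefore depend on the pseudocount, and the count of higher bins on the filter for low bins. Keeping only bins at or above the H3.1 median examined fewer bins and windows, so its smaller counts do not by themselves show such a dependence. Depth limits single bins most.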

Other observations

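The 15 bins with a mean of at least 100 RPM in the H3.1 libraries held 4.94% of the H3.1WT total and 5.46% of the H3.1K36M total, beside 2.33% in H3.3WT and 2.20% in H3.3K36M. The first, chr2:98500001-98510000, held 36915 RPM in H3.1WT against 40780 RPM in H3.1K36M (1.10-fold higher), with 17606 RPM in H3.3WT against 16383 RPM in H3.3K36M. Next were chr6:103590001-103600000 (1.07-fold higher in H3.1K36M), chr9:35110001-35120000 (1.19-fold) and chr9:3000001-3010000 (1.13-fold). Leaving these 15 bins out of the totals moved the log2 ratio of all other bins by 0.00804. Input libraries were not used here, so how much of the reads in these bins is H3.1 signal was not tested.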
